A study of Mus musculus with 20 samples.

Results

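The genes described here encode the proteins of the cytosolic ribosome. They were taken as the GENCODE M21 protein-coding genes whose symbol is Rpl or Rps with a number (and at most an a, l or x after it), together with Rplp0, Rplp1, Rplp2 and Rpsa. This gave 80 of the 47729 genes in the count files, 31 of the 40S and 49 of the 60S subunit. The rule uses symbols only and no measured value. It leaves out Rps3a1, Rpl36al, Rpl22l1, Rpl7l1 and the fusion gene Fau, among others.

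RNA was sequenced from mouse kidney cells that had been sorted with magnetic beads for Sca-1, a surface protein encoded by Ly6a, and that the labels describe as similar to mesenchymal stem cells. The 20 libraries fall into 6 groups. At day 0 cells were fresh from the kidney (2 libraries of control and 2 of roxadustat). At day 7 and at day 21 (4 libraries of either arm each) they had been cultured in a medium for mesenchymal stem cells with fetal calf serum, antibiotics, 5% CO2 and 20% oxygen at 37 °C. Roxadustat blocks prolyl hydroxylation of hypoxia-inducible factor (HIF) and so stabilises it. The labels give 1 protocol for all libraries, with injections of 33 mg/kg into the peritoneum over 7 days before the kidneys were digested. The series text speaks of medium with roxadustat for the cultured cells, and neither source says whether those cells came from injected mice. No strain, sex, age or further genetic change is given. The labels also do not say whether replicates were separate animals or cultures, so p-values measure the spread between these libraries, which may be technical.

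Each cytosolic ribosome holds a small 40S subunit, which reads the mRNA, and a large 60S subunit, which joins amino acids. The proteins are made in matched amounts and assembled with ribosomal RNA in the nucleolus. Most of the mRNAs start with a C and a run of pyrimidines, the 5′ terminal oligopyrimidine (TOP) tract, through which the mTOR kinase and the protein LARP1 set how strongly they are translated. Ribosomal protein genes have many processed pseudogenes, copies of the spliced mRNA inserted elsewhere in the genome, and 299 pseudogenes with such a name are in the annotation. A fragment from a stretch shared by gene and copy cannot be assigned to 1 of them, and what the authors' counting did with such fragments is not given in the sources used here.

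RefSeq start-site windows of 300 bases (250 before the listed start and 50 from it, GRCm38.p6) were given for 60 of the 80 genes, 72 windows in all. The following stretches of 15 bases before and 15 bases from the listed start are shown because their genes differ in what they did in culture (values below). Capitals mark a run of at least 5 pyrimidines that begins with C exactly at the listed start, and a sequence without capitals has no such run there. Rps6 (chr4:86857353-86857382, minus strand), Rplp2 (chr7:141447636-141447665, plus), Rps21 (chr2:180257364-180257393, plus), Rps18 (chr17:33955651-33955680, minus) and Rpl15 (chr14:18270972-18271001, minus) have the tract. Another listed start of Rps21 (chr2:180257434-180257463, plus), not printed, does not have it. Rpl5 (chr5:107900513-107900542, plus), Rps26 (chr10:128626492-128626521, minus) and Rps7 (chr12:28635939-28635968, minus) do not have it at the listed start.
Rps6: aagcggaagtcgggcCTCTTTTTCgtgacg
Rplp2: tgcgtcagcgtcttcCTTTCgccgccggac
Rps21: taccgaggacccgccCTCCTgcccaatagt
Rps18: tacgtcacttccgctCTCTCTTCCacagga
Rpl15: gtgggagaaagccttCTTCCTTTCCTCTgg
Rpl5: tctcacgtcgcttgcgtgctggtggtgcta
Rps26: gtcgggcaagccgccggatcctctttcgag
Rps7: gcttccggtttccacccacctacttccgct

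The tract stood at the listed start in 13 of 72 windows of these genes (18.1%) and in 2.51% of all 32851 windows. Listed starts can lie upstream or downstream of the start used in these cells, so a window without capitals says only that the run is not at that base. On either strand of the 300 bases, CCGGAAG, the core bound by ETS factors, was found in 36.1% of the windows of these genes and 8.86% of all. GCGTG and ACGTG, which contain the core of HIF sites, were found in 56.9% and 31.9% against 32.4% and 19.6% of all. CACGTG, which holds ACGTG and is the E-box bound by Myc, was in 11.1% against 7.15%, and TATAAA in 8.33% against 13.6%. These shares describe letters in windows, were not tested and say nothing of binding.

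Libraries held 8502011 to 19903160 counts. Ribosomal protein genes took a small share of them, 0.3018% to 1.104%, with the lowest shares in fresh cells and the highest in control cells at day 7. By library the share was 0.3647% and 0.3018% in control and 0.4166% and 0.3831% in roxadustat cells at day 0. At day 7 it was 1.037%, 1.064%, 1.104% and 1.057% in control and 0.795%, 0.7757%, 0.7277% and 0.739% in roxadustat cells. At day 21 it was 0.7273%, 0.716%, 0.5998% and 0.5915% in control and 0.4218%, 0.5026%, 0.4616% and 0.4638% in roxadustat cells. The 2 arms did not overlap at any time: roxadustat libraries lay above control at day 0 and below at day 7 and day 21. At day 21 the control libraries fall into pairs, replicates 1 and 2 above replicates 3 and 4, and the same pairs stand apart over all genes. The ratio of 40S to 60S counts stayed within 0.6685 and 0.7527 in the 20 libraries.

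**Figure D1:**
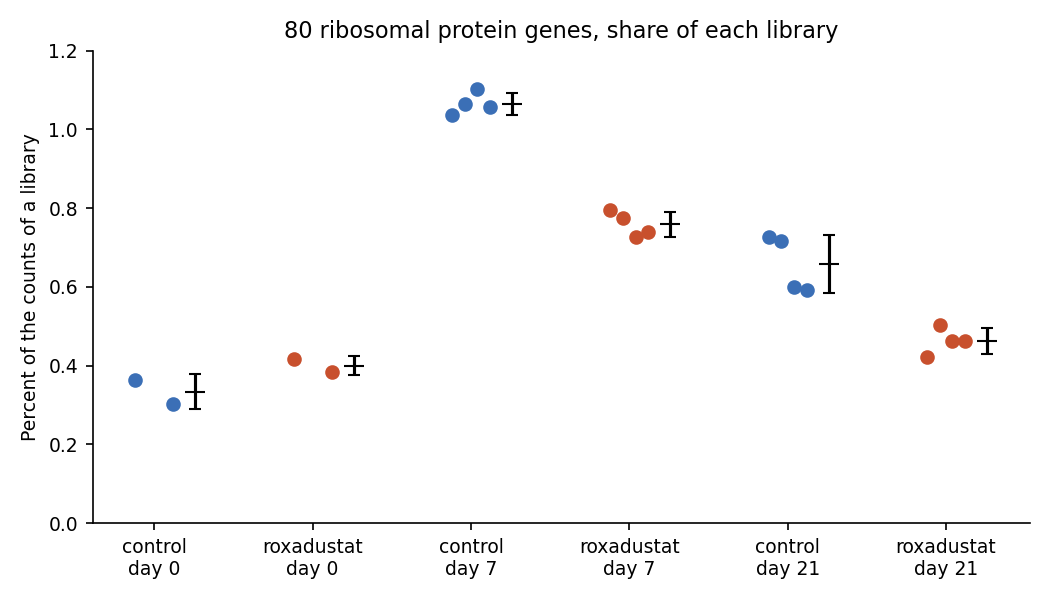
Share of the counts of each library taken by the 80 ribosomal protein genes (y axis, percent) in the 6 groups (x axis); points are libraries, and the black mark beside each group is its mean ± SD (n = 2 at day 0, 4 otherwise). The 4 control libraries at day 7 sit between 1.037% and 1.104%, above all others, and the 4 day 0 libraries sit at or below 0.4166%.

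Levels are CPM, the counts of a gene relative to those of its library, scaled by TMM, a scaling that assumes most genes do not change. A gene is said to rise or fall where edgeR's quasi-likelihood test gave a Benjamini-Hochberg adjusted p under 0.05 over 18731 genes. By this test 37.0% of all genes rose and 39.5% fell in control cells from day 0 to day 7. With roxadustat at day 21 30.0% rose and 32.9% fell. The assumption of TMM is therefore in doubt in these data. Of the 80 members 78 passed the filter on low counts. Rpl10l, a retrogene copy of Rpl10, had 0 counts in every library, and Rpl39l had 0 or 1. Per kilobase of mRNA, the highest means of the 6 group means were those of Rplp1 (599.8 CPM per kb) and Rpl8 (571.7). The lowest of the tested members was Rpl23a with 0.56. The level fell with the share of an mRNA that other genes also hold. The 31 tested members with at most 50% of their mRNA 50-mers (stretches of 50 bases) found in other genes had a median of 103 CPM, and the 47 with more had a median of 12 CPM (Spearman's rho over 78 genes, which share all libraries, -0.524, a description). Levels of single members are therefore read below only against the same gene in other groups.

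In control cells the family rose from fresh kidney to day 7 of culture. Of the 78 members 68 rose, against 37.0% of all genes tested, and only Rpl3l fell, against 39.5% of all genes. The median log2 fold change was 1.14, beside -0.03 over all genes. The 40S and 60S proteins rose alike in count, 27 of 31 and 41 of 47, with medians of 1.28 and 1.09.

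The largest rises were those of Rpl12, at the base of the stalk, Rps2, at the mRNA entry, Rpl39, in the exit tunnel, Rps26 and Rps20. Rpl12 (ENSMUSG00000038900, chr2:32961559-32965345) was at 4.74 and 4.87 CPM fresh and at 22.7, 25.5, 26.1 and 24.4 CPM at day 7, a log2 fold change of 2.36 ± 0.15 (SE, adjusted p = 1.74e-14). Rpl39 rose by 1.91 ± 0.15 on the log2 scale, from 51.1 and 42.9 CPM to 160, 180, 174 and 192 CPM. In both genes the fresh and the cultured libraries lie far apart. Rps2 was at 93.5 CPM in control replicate 1 and 4.34 CPM in replicate 2 at day 0, and at 221, 216, 237 and 214 CPM at day 7. Its fitted 2.18 (adjusted p = 0.00324) thus rests on replicate 2: without it the log2 fold change was 1.25 (adjusted p = 2.55e-12), without replicate 1 it was 5.67, and in a fit of the 2 groups alone adjusted p was 0.132. Beside Rps2, 6 members of at least 5 CPM differed over 1.5-fold between the fresh control libraries, namely Rpl29, Rpl34, Rpl37a, Rplp0, Rps18 and Rps28, while of such members only Rpl10a did so between the fresh roxadustat libraries.

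The stalk proteins Rplp0, Rplp1 and Rplp2, which recruit the elongation factors, rose by 1.59, 1.56 and 1.12. Rpl5 and Rpl11, which enter the ribosome bound to 5S rRNA and in free form bind Mdm2, rose by 0.75 and 0.89. Rps6, the substrate of S6 kinase, rose by 1.26 from a low level of 2.34 and 1.78 CPM. Not all members moved: Rpl15 was at 33.8 and 35.4 CPM fresh and 31.1 to 35.0 CPM at day 7, and its value of -0.05 ± 0.10 did not pass (adjusted p = 0.657). Rpl15 was the only member of at least 20 CPM not called in this comparison.

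Rpl3l, the paralog of Rpl3 made mainly in heart and skeletal muscle, went the other way. It had 20 and 14 counts in fresh control and 63 and 55 counts in fresh roxadustat libraries, 1 to 5 counts in every day 7 library and 0 to 2 in every day 21 library. It fell from day 0 to day 7 by 2.44 in control and by 4.77 in roxadustat cells on the log2 scale (adjusted p = 1.66e-05 and 1.77e-12). Its broad partner Rpl3, at the peptidyl transferase centre, rose by 0.99 ± 0.10 in control cells and was not called in roxadustat cells (0.19 ± 0.10, adjusted p = 0.0981).

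The cells also changed in kind between these times. Summed over 8 markers each, proximal tubule genes went from 20290 to 20340 CPM in fresh control to 74.54 to 79.11 CPM at day 7, genes of the loop, distal tubule and collecting duct from 15450 to 20270 CPM to 3.298 to 4.291 CPM, fibroblast genes from 258.3 to 443.1 CPM to 10370 to 10950 CPM, and genes of cycling cells from 76.49 to 108.2 CPM to 530.7 to 549.2 CPM. All 8 markers of either tubule list fell, all 8 of cycling cells rose, 4 fibroblast markers rose and 3 fell, and none of the 32 was at 0 in these groups. The share of counts from mitochondrially encoded genes was 11.83% and 15.66% in fresh control and 1.936% to 2.124% at day 7, and the share of the most abundant gene was 7.868% and 10.49% against 1.277% to 1.447%. The part of these shifts in the rise of ribosomal protein genes was not tested. Ly6a itself, for whose protein the cells were sorted, was present in all libraries, at 495.1 to 549.4 CPM in fresh control and 157.7 to 171.5 CPM in control cells at day 7. In such bulk libraries, more RNA per cell and more cells of a type that makes much of it cannot be told apart.

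Roxadustat cells rose less from day 0 to day 7. Here 46 members rose (37.1% of all genes did) and 5 fell (37.6% of all), with a median of 0.40 beside 0.03 over all genes. Rpl27 (1.45), Rpl12 (1.37), Rpl10a (1.19), Rps26 (1.04) and Rpl39 (0.95) rose most. Rpl10a, a protein of the L1 stalk, was at 12.6 and 8.13 CPM fresh and at 24.6, 23.2, 23.7 and 24.0 CPM at day 7. Rpl29 fell by 0.67 and Rpl15 by 0.28 (adjusted p = 0.00488 and 0.0132), and the other 3 that fell, Rpl24, Rpl3l and Rps27, were under 5 CPM. Library scaling matters for this comparison, since with library size alone 66 rose and 1 fell, and Rpl15 then had 0.16 (adjusted p = 0.166).

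From day 7 to day 21 the family fell in both arms. In control cells 67 members fell, against 34.3% of all genes, and 0 rose, against 34.5% (also 0 at an unadjusted p under 0.05, and 0 by DESeq2). The median was -0.52, beside 0 over all genes. Rps7, at 6.01, 6.41, 8.11 and 6.65 CPM at day 7, was at 2.15, 3.18, 2.07 and 2.74 CPM at day 21, a log2 fold change of -1.41 ± 0.17 (adjusted p = 2.66e-08). Rps25, Rpl27, Rps27a, which carries a ubiquitin at its start, and Rpl21 fell by 1.38, 1.19, 1.14 and 0.89. These low genes moved most, and members of at least 20 CPM had a median of -0.47.

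In roxadustat cells 64 members fell between these days, against 32.9% of all genes, and 0 rose, against 28.6% (0 at an unadjusted p under 0.05, 0 by DESeq2), with a median of -0.77 beside -0.03. Rps26 was at 112, 110, 109 and 115 CPM at day 7 and at 43.7, 32.4, 52.1 and 55.8 CPM at day 21, a fall of 1.28 ± 0.15 (adjusted p = 2.93e-06). Rps25, Rpl39, Rplp2 and Rpl23 fell by 1.04, 0.99, 0.98 and 0.97. Of the members of at least 20 CPM, Rpl10a and Rps2 were not called. Rps2 was at 153 to 162 CPM at day 7 and 88.8 to 93.7 CPM at day 21 with no overlap, and its fitted -0.77 ± 0.42 (adjusted p = 0.131) comes from a fit that holds its unequal fresh control libraries.

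**Figure D2:**
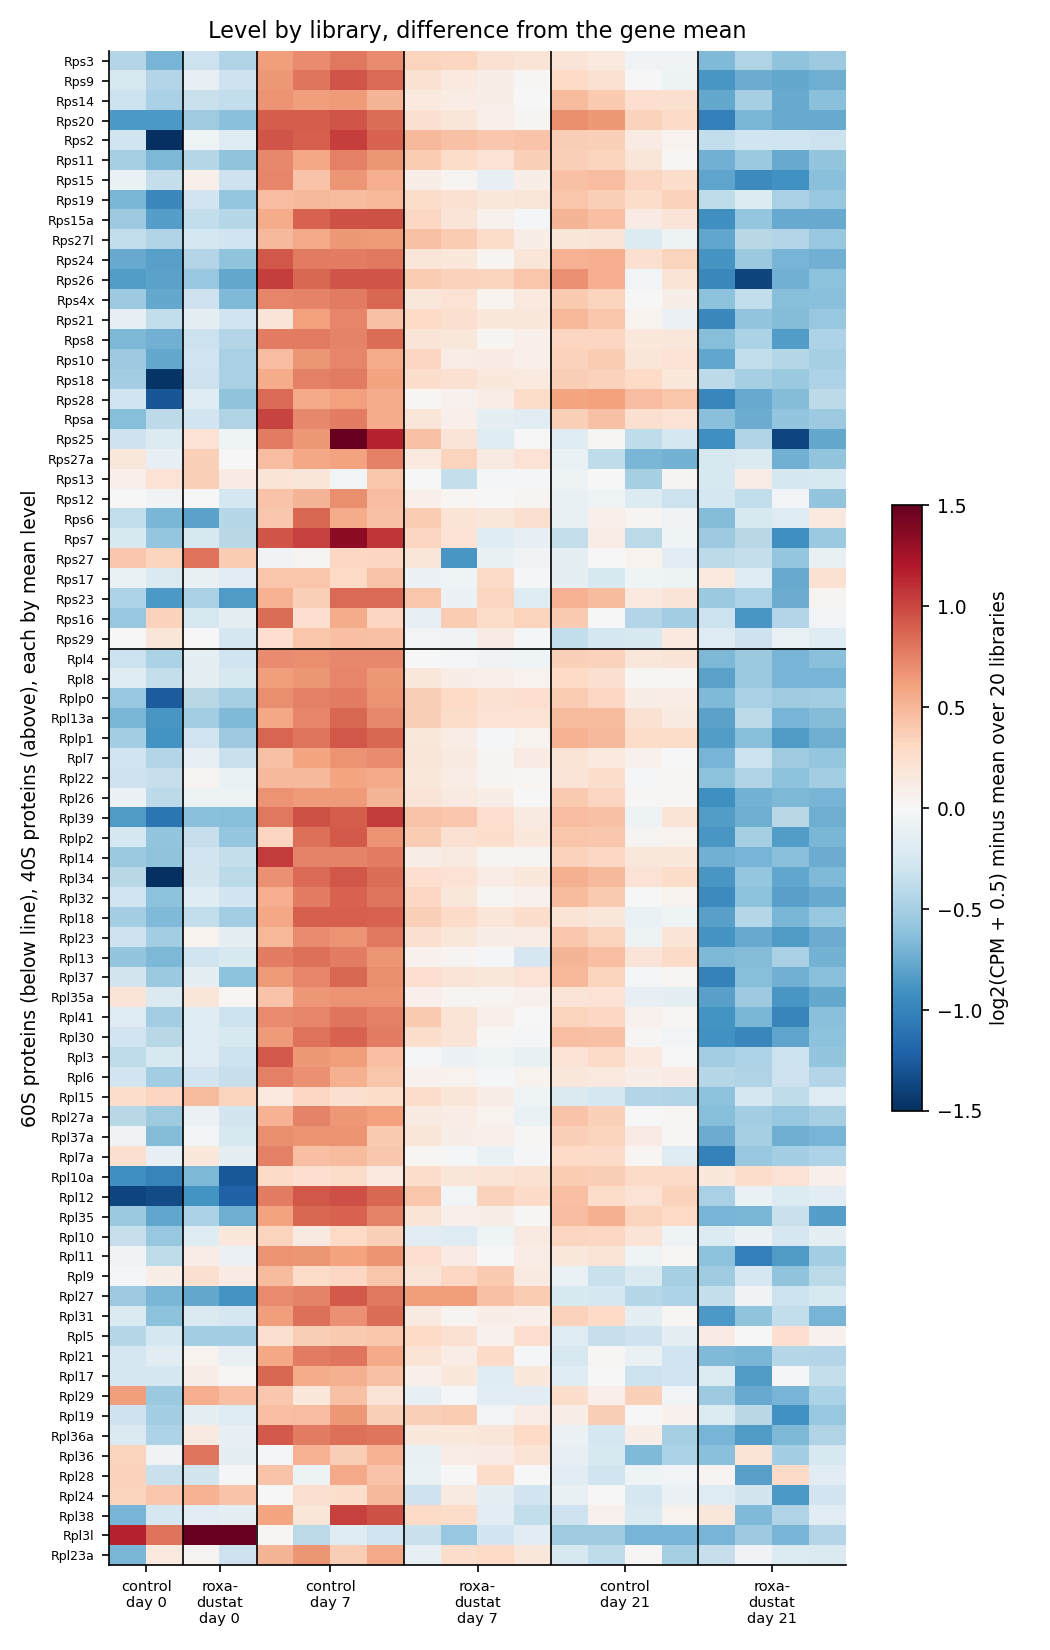
Level of the tested ribosomal protein genes (2 of the 78 are not shown; rows, 40S above and 60S below the line, each ordered by mean level) in the 20 libraries (columns, replicates in number order within a group), as log2(CPM + 0.5) minus the mean of the gene over all libraries (colour, limited to 1.5 in either direction). Control cells at day 7 are high for nearly every gene, fresh cells and roxadustat cells at day 21 are low, and Rpl3l is high in fresh cells alone.

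Fresh cells of roxadustat mice differed little from control. Here 4 members rose (5.13% of 78, against 2.73% of all genes) and 0 fell (4.11% of all genes; also 0 at an unadjusted p under 0.05 and 0 by DESeq2), with a median of 0.18 beside -0.01. At an unadjusted p under 0.05, a looser cut to which the 2.73% of all genes does not apply, 18 were higher. Rps19, the gene most often mutated in Diamond-Blackfan anemia, was at 66.5 and 54.4 CPM in control and 87.8 and 71.8 CPM in roxadustat cells, a log2 fold change of 0.40 ± 0.10 (adjusted p = 0.0143). Rpl13 and Rpl22 rose by 0.37 and 0.30, and Rpl3l by 1.90 ± 0.34 (adjusted p = 0.000564) from the counts above. In each of the 4 genes both roxadustat libraries lay above both control libraries. This adds no support to the calls, since the same values gave them.

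These calls are not firm, since they borrow the spread of the cultured libraries: a fit of the 4 fresh libraries alone called 0 members (35 genes in all rose and 29 fell). Without control replicate 1 12 members rose, and with any 1 fresh library left out the count ran from 1 to 12. Fibroblast markers summed to 258.3 to 443.1 CPM in control and 1476 to 2469 CPM in roxadustat cells, and 5 of 8 were called higher. Macrophage markers summed to 99.9 to 110.4 and 194.8 to 232.9 CPM, and 7 of 8 were called higher. None of these 16 genes was at 0. All 8 endothelial markers were lower (149.2 to 156.2 against 246.6 to 282.1 CPM), as were 5 of 8 epithelial markers. Their part in the result was not tested.

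At day 7 of culture the family was lower with roxadustat. Of 78 members 63 fell, against 23.6% of all genes, and 0 rose, against 24.1% (0 at an unadjusted p under 0.05, 0 by DESeq2), with a median of -0.55 beside 0.03. With TMM scaling every member had a negative fold change, though some lay near 0. Both subunits fell alike, 25 of 31 members of the 40S with a median of -0.54 and 38 of 47 of the 60S with -0.55. In 62 members all 4 roxadustat libraries lay below all 4 control libraries, as they did in 4454 of the 18731 genes tested. Among the 31 members with at most 50% shared sequence 28 fell, with a median of -0.58.

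The largest falls were those of Rps7, Rps25, Rpsa, Rpl13 and Rplp1. Rps7 was at 3.74, 3.44, 2.51 and 2.62 CPM with roxadustat against the 6.01 to 8.11 CPM of control, a log2 fold change of -1.14 ± 0.16 (adjusted p = 6.12e-07). Rplp1 was at 536, 509, 557 and 531 CPM in control and 328, 317, 285 and 304 CPM in roxadustat cells, -0.79 ± 0.08 (adjusted p = 3.71e-09). Rpsa, also known as a laminin receptor, fell by 0.80 and Rpl13 by 0.80, again without overlap. The changes were modest in size, and 3 of the 63 reached 2-fold.

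Among the other stalk proteins Rplp0 fell by 0.43 and Rplp2 by 0.44, the latter with overlapping libraries (114, 161, 173 and 145 CPM in control, 119, 107, 109 and 102 CPM with roxadustat). Of the 5S partners Rpl11 fell by 0.55 (adjusted p = 2.47e-05), and Rpl5 had -0.15 ± 0.09 (adjusted p = 0.181). Rps6 had -0.36 (adjusted p = 0.0538). Rps27l, the paralog of Rps27 that is induced by p53, fell by 0.28 (adjusted p = 0.00898), while Rps27 itself, with 98.65% of its mRNA 50-mers in other genes, had -0.39 (adjusted p = 0.103). The 4 members of at least 20 CPM that were not called were Rpl10a, Rpl15, Rps2 and Rps21. Of these Rps2 had no overlap between arms (-0.50 ± 0.41, adjusted p = 0.356).

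At day 21 the family was again lower with roxadustat. Of 78 members 57 fell, against 32.9% of all genes, and 1, Rpl5, rose, against 30.0%, with a median of -0.78 beside 0 over all genes. Of these 58 changes 14 reached 2-fold. Of the 47 members of at least 20 CPM 44 fell, with a median of -0.90, and Rpl10a, Rpl15 and Rps2 were not called. Rps2 lay lower in all 4 roxadustat libraries there too (-0.56 ± 0.43, adjusted p = 0.276). Of the 31 under 20 CPM 13 fell and 1 rose, with a median of -0.31.

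Rps20 (ENSMUSG00000028234, chr4:3831334-3835665), of which 7.575% of mRNA 50-mers are in other genes, had the largest fall. It was at 202, 195, 158 and 152 CPM in control and at 60.8, 76.8, 73.4 and 73.4 CPM with roxadustat, so that the lowest control library was above the highest roxadustat library. The log2 fold change was -1.31 ± 0.08 (adjusted p = 2.03e-13). Rps26 fell by 1.29 ± 0.16, from 139, 126, 83.7 and 99.3 CPM to 43.7, 32.4, 52.1 and 55.8 CPM. Rps28, at the mRNA exit with Rps26, fell by 1.23, Rps15 of the 40S head by 1.19 and Rplp1 by 1.15. Rplp0, Rplp2, Rpsa and Rpl11 fell by 0.78, 0.96, 0.98 and 0.87, each with no overlap.

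Rpl5 (ENSMUSG00000058558, chr5:107900502-107909005) stood against this. It was at 6.87, 6.06, 6.22 and 7.09 CPM in control and at 8.63, 7.82, 9.44 and 8.25 CPM with roxadustat, and no library overlapped. The log2 fold change was 0.37 ± 0.10 (adjusted p = 0.0022), and leaving out any 1 library of the 2 groups kept it between 0.33 and 0.41. In other genes 93.84% of its mRNA 50-mers occur, and 26.71% of its exon bases overlap Fam69a or Snord21, so its counts are uncertain in source. Rpl10a (21.5 to 24.6 against 24.97 to 26.8 CPM, -0.16 ± 0.08, adjusted p = 0.0836) and Rpl15 (18.2 to 24.6 against 20.4 to 24.1 CPM, -0.01 ± 0.09) did not pass, and both also share over 50% of their mRNA 50-mers. Of the genes whose start sites are printed above, Rplp2, Rps21 and Rps18 with the tract (Rps21 only at the printed start) and Rps26 and Rps7 without it at the listed start fell at day 21, Rpl5 without it rose, and Rps6 and Rpl15 with it were not called. These genes were chosen because they differ in such values, so this split says nothing of the tract in the family.

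**Figure D3:**
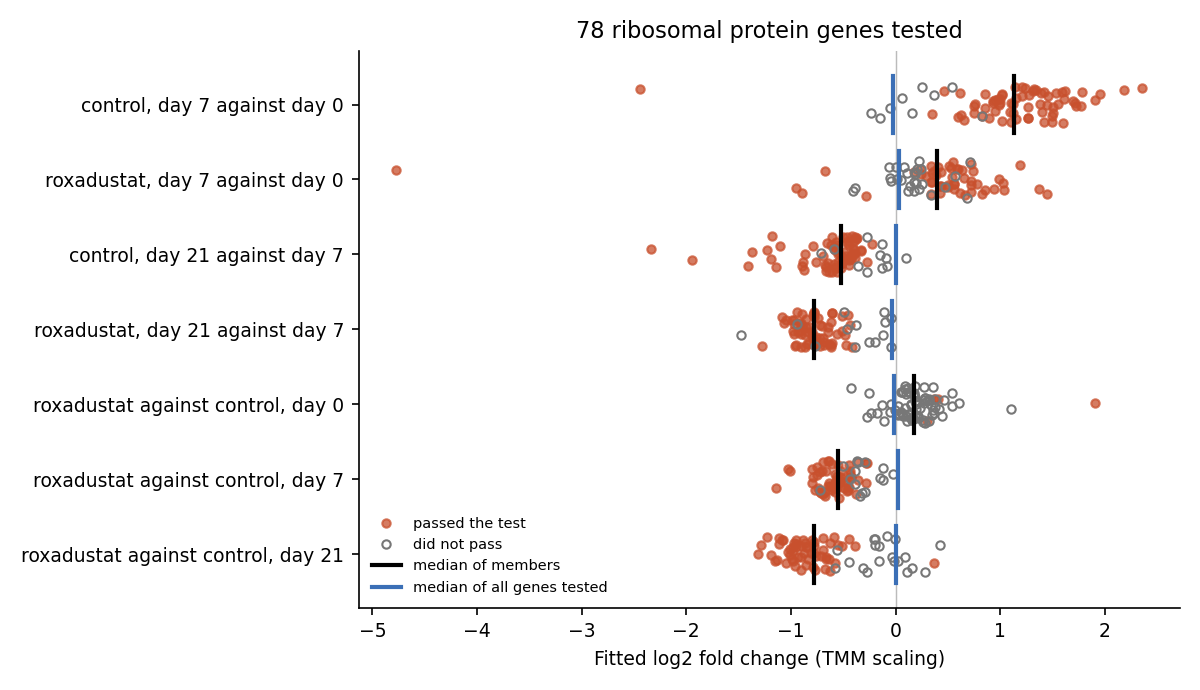
Fitted log2 fold changes (x axis, TMM scaling) of the 78 tested ribosomal protein genes in 7 comparisons (y axis; vertical scatter within a row is only for legibility), filled where the adjusted p was under 0.05; the black bar is the median of these genes and the blue bar that of all 18731 genes tested. The family median lies at 1.14 for control cells from day 0 to day 7 and at -0.55 and -0.78 for roxadustat against control at day 7 and day 21.

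The 2 arms differed in other cell markers as well. At day 7 all 8 macrophage markers were lower with roxadustat (sums of 16.34 to 18.09 against 332.9 to 338.2 CPM), all 8 of cycling cells were lower (162 to 172.4 against 530.7 to 549.2 CPM), 4 of 8 fibroblast markers were lower (6510 to 7565 against 10370 to 10950 CPM) and all 8 epithelial markers were higher (524.6 to 544.9 against 227.6 to 239.5 CPM). At day 21 all 8 fibroblast markers (2507 to 3747 against 46910 to 50180 CPM) and all 8 macrophage markers (16.09 to 18.42 against 282.5 to 331.5 CPM) were lower, 5 of 8 of cycling cells were lower (117.3 to 123.9 against 160 to 169.8 CPM) and all 8 epithelial markers were higher (421.1 to 458.5 against 16.57 to 19.5 CPM). None of these lists had a marker at 0 in either arm. Mitochondrially encoded genes took 0.8108% to 0.9741% of counts with roxadustat against 1.936% to 2.124% at day 7, and 0.5526% to 1.216% against 1.997% to 2.406% at day 21. The part of these shifts in the lower ribosomal protein levels was not tested.

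The effect of roxadustat, here the difference between the arms at a time, differed between the times. From day 0 to day 7 the effect moved down in 54 members (13.4% of all genes) and up in 0 (15.5% of all genes; 0 at an unadjusted p under 0.05, 0 by DESeq2), with a median difference of -0.74 beside 0.05. The fresh libraries enter this test, so it carries their uncertainty. Fresh cells came straight from the kidney after injections, and for cultured cells the series text speaks of medium with roxadustat. Time, culture, cell mix and route of exposure thus cannot be told apart in this test. From day 7 to day 21 the effect moved further down in 26 members (23.8% of all genes) and up in 3 (20.9%), with a median of -0.20 beside -0.02. This second result turned under scaling, as with library size alone 13 moved up and 2 down and the median was 0.08.

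Library scaling decides how large the changes are. For some members, and for the move of the roxadustat effect from day 7 to day 21, it also decides the direction. It can hardly alter where the family stands among all genes, since a library factor shifts all genes of a comparison nearly alike. TMM factors were 0.7817 to 0.8236 in fresh libraries, 0.9022 to 0.9308 in control cells at day 21 and 1.147 to 1.189 in roxadustat cells at day 21. With library size alone the median of all genes moved to 0.34 for roxadustat against control at day 21, to 0.40 and 0.46 for day 7 against day 0 in control and roxadustat cells, and to -0.19 for day 21 against day 7 in control cells. The family median moved with it, at day 21 from -0.78 to -0.43, and 51 members fell and 5 rose. Over all genes 9369 then rose and 3551 fell, against 5615 and 6165 with TMM. The distance between both medians therefore hardly changed, which is no test of the place of the family. It was -0.78 with TMM and -0.77 with library size alone at day 21. At day 7 it was -0.58 and -0.58, and for control cells from day 0 to day 7 it was 1.16 and 1.16. DESeq2's size factors gave distances of -0.77, -0.58 and 1.16.

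**Figure D4:**
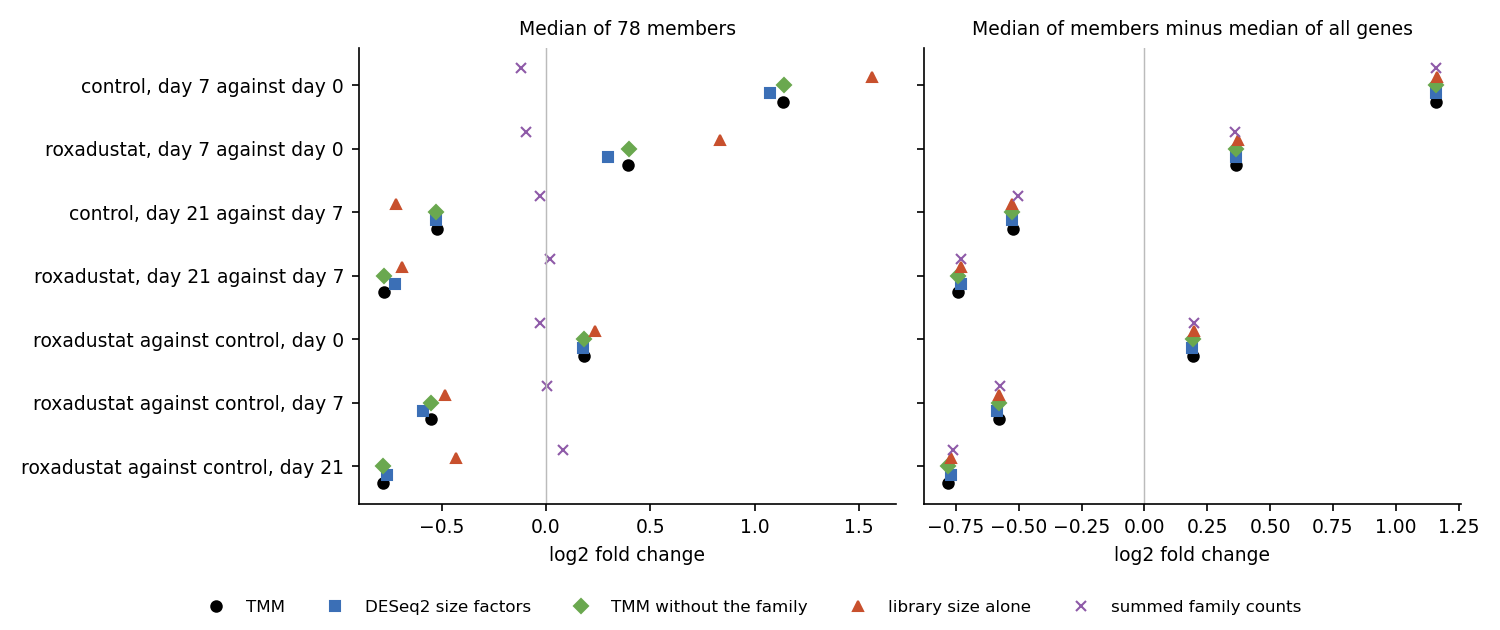
Median log2 fold change of the 78 tested members (left) and the same minus the median of all genes tested (right) under 5 ways to scale libraries (symbols), for 7 comparisons (rows). On the left, library size alone moves the day 21 value from -0.78 to -0.43. Scaling to the summed family counts brings every value there near 0. On the right the symbols of a comparison nearly coincide by construction, since a library factor shifts all genes nearly alike.

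Scaled to the summed counts of the family itself, a value says how a member moved against the rest. At day 7 10 members were higher and 8 lower with roxadustat (70.0% of all genes were called in this scaling), and 65 of 78 lay within 0.25 of 0 on the log2 scale. At day 21 24 were higher and 13 lower (81.0% of all genes called), and 44 lay within 0.25. Rpl5 (1.23), Rpl27 (0.97), Rpl15 (0.85) and Rpl10a (0.70) stood highest and Rps20 (-0.45), Rps26 (-0.41), Rps28 (-0.38) and Rps15 (-0.33) lowest. Of the 24 that stood higher 19 have over 50% of their mRNA 50-mers in other genes, and of the 13 that stood lower 4 do. For control cells from day 0 to day 7 13 stood higher and 28 lower (83.4% of all genes called), led by Rpl12 (1.10) and Rpl39 (0.66) on one side and Rpl15 (-1.31) and Rps13 (-1.20) on the other.

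**Figure D5:**
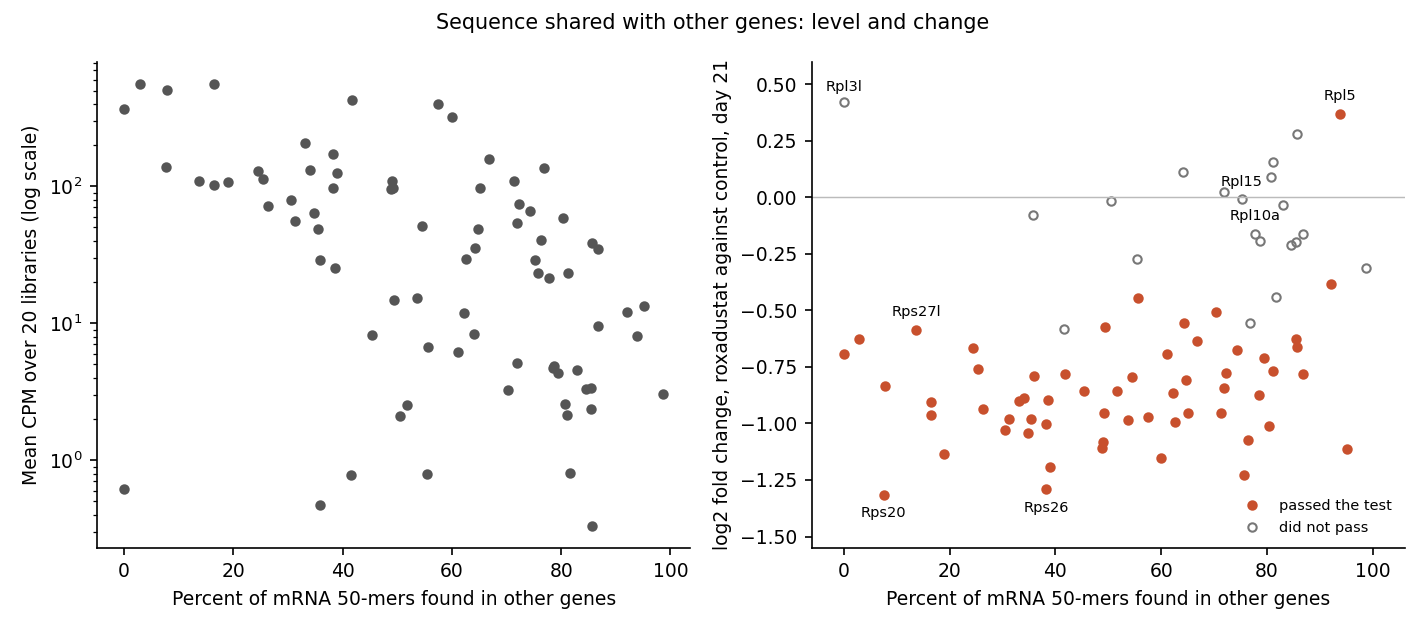
Left, mean CPM over 20 libraries (log axis) of the 78 tested members against the percent of their mRNA 50-mers that occur in other genes; right, their log2 fold change for roxadustat against control at day 21 against the same percent, filled where adjusted p was under 0.05. Members with at most 50% shared have a median of 103 CPM and 28 of 31 of them fell, and most open points, Rpl10a and Rpl15 among them, lie at high shared percent.

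Genes that work with the ribosome are given beside the shares of all genes. Examples named among them were chosen after their values were seen. With roxadustat 23.6% of all genes fell and 24.1% rose at day 7, and 32.9% fell and 30.0% rose at day 21. A list of 25 genes held elongation and initiation factors and other TOP transcripts, among them Gas5 and Snhg genes, which are noncoding. With roxadustat all 25 fell at day 7. At day 21 20 fell and 1 (Hnrnpa1, 0.30) rose, and the medians at the 2 times were -0.45 and -0.56. Eef1b2, of the exchange factor of elongation factor 1, had -0.73 and -1.22 at the 2 times. From day 0 to day 7 23 of the 25 rose in control cells (37.0% of all genes). The scaffold Rack1, a ribosomal protein outside the symbol rule, fell by 0.64 and 0.93.

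Of 40 nucleolar and assembly factors tested, 35 rose in control cells from day 0 to day 7 and 33 (82.5%) fell with roxadustat at day 7. At day 21 13 (32.5%) fell, near the 32.9% of all genes, and 6 (15%) rose, with a median of -0.08. The effect of roxadustat moved up from day 7 to day 21 in 24 of the 40 and down in 2 (20.9% and 23.8% of all genes), with a median difference of 0.29, where the members had -0.20. Nop56, of the box C/D snoRNP, had -0.52 at day 7 and 0.18 at day 21 (adjusted p = 3.18e-07 and 0.0364), and Npm1, the nucleolar chaperone, had -0.77 and -0.47. Of 14 genes of RNA polymerase I and its factors 6 (42.9%) fell at day 7, and 4 (28.6%) fell and 5 (35.7%) rose at day 21, the latter near the shares of all genes.

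Of 77 genes for proteins of the mitochondrial ribosome, which is a separate machine, 47 fell and 6 rose in control cells from day 0 to day 7 (39.5% and 37.0% of all genes), where the cytosolic proteins rose. With roxadustat 20 fell and 5 rose at day 7 and 24 fell and 10 rose at day 21, with medians of -0.09 and -0.04. The falls were near the shares of all genes, and the rises were below them (24.1% and 30.0% of all genes rose). Among 23 regulators (Myc and mTOR pathway genes) 7 rose and 6 fell at day 7 and 7 rose and 8 fell at day 21, again near those shares. Myc, which activates ribosome genes, was higher with roxadustat at both times (0.79 and 1.52), as were Mxi1, a Myc antagonist (1.40 and 1.89), and Ddit4, an inhibitor of mTOR complex 1 (1.51 and 1.12). Lower at both times were, among others, Rheb, the activator of that complex (-0.50 and -0.43), and Akt1s1, one of its inhibitors (-0.39 and -1.12).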

How the data were processed

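For every library (20 in all) the authors deposited whole-number counts, 1 value per Ensembl gene. Per the submitters' processing notes, the authors aligned to mm10 and used featureCounts 1.5.0-p1, STAR 2.5.2a and bcl2fastq, the last without a version; per the labels, libraries were non-stranded mRNA libraries. The annotation release and the handling of reads with several matches are not given in the sources used here. Of 47729 genes 47310 were matched to GENCODE M21.

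Counts of all 20 libraries were fitted with edgeR 4.0.16 in R 4.3.3 (filterByExpr, TMM, robust quasi-likelihood F test, Benjamini-Hochberg adjustment, threshold 0.05, no block), and steps were tested on simulated data. Each SE was derived from the F statistic (size of the log2 change over the root of F). Same-numbered replicates did not deviate together (correlations of -0.47 to 0.24) and were not paired in the fit, though this check cannot exclude a pairing. No pair of libraries agreed within sampling noise. The members and gene lists were chosen with earlier results of these data known. Named genes are the 5 largest rises and falls of a comparison at 5 CPM or more, the 4 largest each way relative to the family, and members in fixed roles. Alternatives were DESeq2 1.42.0 and its size factors, library size alone, TMM without the family, the summed family counts, no filter, a replicate block, only the groups compared, each library left out and, added after seeing the data, control day 21 libraries summed in 2 pairs. Values of some genes are not reported here; counts over the family include them.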

Additional observations from a re-analysis of the deposited data

Results flagged for a closer look

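Rps4x, the X-linked 40S protein, stood apart in roxadustat replicate 2 at day 21, at 53.6 CPM against 44.3 to 45.1 CPM in the other 3 libraries. Its gap was 0.911 of the range of the group, above Dixon's 95% critical value for 4 samples. It was the only one of 140 sets of 4 libraries to pass, where chance passes about 1 in 20.

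The effect of roxadustat differed between fresh cells and day 7, by edgeR's test of the interaction, most for Rps25 (-1.40, adjusted p = 0.00652), Rps7 (-1.23, 0.00503), Rpl34 (-1.19, 0.00444), Rpl13 (-1.17, 5.94e-08) and Rplp1 (-1.06, 9.55e-07). Rps25 had -1.23 without roxadustat replicate 1 at day 0 (adjusted p = 0.0597), and scaled to the summed family counts Rps25 (-0.62, 0.102) and Rps7 (-0.47, 0.197) lost the call. From day 7 to day 21 it moved up for Rps7 (0.63), Rpl5 (0.52) and Rpl27 (0.39). The call of Rps7 was lost without a filter (adjusted p = 0.0734), with the replicate block (0.056), with the control day 21 libraries summed in pairs (0.0609) and without most single libraries (up to 0.116). The call of Rpl27 was lost without a filter (0.106), with the summed pairs (0.0574) and without several single libraries (up to 0.0889). The effect moved down for Rps26 (-0.71), Rps28 (-0.69), Rps21 (-0.64) and Rps15 (-0.63). With library size alone Rps26 (-0.44, adjusted p = 0.107), Rps28 (-0.41, 0.139) and Rps21 (-0.36, 0.144) were no longer called. Scaled to the summed family counts, Rps26 (-0.39, 0.0929) and Rps28 (-0.39, 0.0891) were not called either. All values are differences of log2 fold changes with TMM scaling.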

How the results depend on the processing

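Over 89 pairs of a named member and a comparison, 1476 alternative values were computed; 1370 kept direction and side of the threshold, 63 lost the call, 9 gained one and 34 changed sign. At most 20 libraries in 6 groups, and 2 per group at day 0, limit these tests, and members of a few CPM rest on few counts. With DESeq2's size factors, 17 members moved down from day 7 to day 21 in the interaction. With library size alone, 8 members rose at day 0, 5 rose with roxadustat at day 21, 1 fell from day 0 to day 7 with roxadustat, and in the later interaction 13 moved up and 2 down. Log2 values that changed sign there were Rps6 (0.14) and Rps27 (0.033) at day 21, Rps27 in control cells from day 0 to day 7 (0.19) and Rpl15 in roxadustat cells over these days (0.16). Scaled to the summed family counts, which by construction centres the family near 0, members higher and lower were 1 and 0 at day 0, 10 and 8 at day 7, 24 and 13 at day 21, 13 and 28 for control cells to day 7, 9 and 12 to day 21, 12 and 24 for roxadustat cells to day 7, 16 and 4 to day 21, and 9 and 5, then 11 and 4, in the interactions. Signs changed in that scaling for roxadustat at day 7 in Rplp0 (0.12), Rplp2 (0.11), Rps6 (0.19), Rpl5 (0.40), Rpl11 (0.0067), Rps27a (0.13), Rpl3l (0.099), Rps27l (0.27), Rpl10 (0.20) and Rps27 (0.17). At day 21 they changed in Rplp0 (0.078), Rps6 (0.64), Rps27l (0.28), Rpl3 (0.20), Rpl10 (0.47), Rps27 (0.54) and Rps4x (0.082), and for control cells to day 7 in Rplp2 (-0.13), Rpl5 (-0.51), Rpl11 (-0.36), Rps27a (-0.63), Rps27l (-0.26), Rpl3 (-0.27) and Rpl10 (-0.49). Without the filter 9 members rose at day 0, 1 moved up in the later interaction, and Rps27a at day 21 had -0.0042. DESeq2's Wald test gave 7 rises at day 0, and the fresh libraries alone gave 0 with edgeR. With each library left out in turn, 1 to 12 members rose at day 0, 57 to 63 fell at day 7, 55 to 57 fell and 1 rose at day 21, 66 to 68 rose in control cells to day 7, 62 to 67 fell to day 21, 32 to 45 rose and 2 to 6 fell in roxadustat cells to day 7, 62 to 64 fell to day 21, and in the interactions 46 to 55 moved down, then 1 to 4 up and 18 to 32 down. Rps27a at day 21 was -0.050 and -0.066 without control replicates 3 and 4 and -0.044 and -0.069 without roxadustat replicates 1 and 2, so that its range over libraries left out was -0.069 to 0.18, and Rpl3l was -0.41 without roxadustat replicate 4, in a range up to 0.85. With control day 21 libraries summed in 2 pairs, chosen after seeing the data, 1 member moved up in the later interaction. The cause of these changes was not tested. Replicate numbers are not stated to pair the samples. With the replicate block 6 members rose at day 0, 63 fell at day 7, and 57 fell and 1 rose at day 21. In control cells 68 rose and 1 fell to day 7, and 67 fell to day 21. In roxadustat cells 50 rose and 5 fell to day 7, and 64 fell to day 21. In the interactions 52 moved down, then 2 up and 23 down.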
